A study of Rattus norvegicus with 18 samples.

Results

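Egr1 and Egr2 are transcription factor genes whose transcripts were followed in the rat brain before and after a single learning experience. The 2 genes were taken by the Ensembl gene IDs assigned to them beforehand, ENSRNOG00000019422 for Egr1 and ENSRNOG00000000640 for Egr2, out of 32662 gene rows in each deposited count table. All animals were adult Long-Evans rats, an outbred strain, and nothing in the labels sets the groups apart other than training and time. Naive rats stayed in the home cage, and trained rats learned inhibitory avoidance, which teaches the animal to stay away from a compartment paired with a foot shock, and were killed 1 h or 6 d later. RNA came from punches of the dorsal hippocampus (dHC) or of prelimbic cortex (PL), part of the medial prefrontal cortex, and each library was made from a pool of 5 rats. With 3 pools in each of the 6 groups (naive, 1 h and 6 d in each region), 18 libraries were compared. The naive rats were neither handled for the task nor shocked as far as the labels say, so learning, shock and handling cannot be told apart at 1 h. Pools average over 5 animals, so differences between single rats were not measured.

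Egr1 (also called zif268, NGFI-A or Krox-24) and Egr2 (Krox20) encode zinc finger proteins of the early growth response family, which bind GC-rich sites in DNA. Both are immediate early genes: neuronal activity and growth factors raise their transcription within minutes, without new protein synthesis, through kinase signals that reach serum response factor and its ETS partners at CArG boxes and CREB at cAMP response elements (CRE). Egr1 has a readily detected resting level in the cortex and hippocampus and is widely used as a marker of neuronal activity in learning studies, while Egr2 is best known for its part in hindbrain patterning and in myelination by Schwann cells, and is also induced by activity in forebrain neurons.

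The promoter windows of both genes are shown because both transcripts rose together at 1 h. They are RefSeq sequences of the newer rat assembly GRCr8, from 250 bases before to 50 bases after an annotated start, 5′ to 3′ along the gene. Capitals mark matches to the CArG box and to the CRE core TGACG, searched on both strands, which reads CGTCA where it lies on the opposite strand. The Egr1 window lies at chr18:26736828-26737127 on the plus strand and the Egr2 window at chr20:21054392-21054691 on the minus strand.
Egr1: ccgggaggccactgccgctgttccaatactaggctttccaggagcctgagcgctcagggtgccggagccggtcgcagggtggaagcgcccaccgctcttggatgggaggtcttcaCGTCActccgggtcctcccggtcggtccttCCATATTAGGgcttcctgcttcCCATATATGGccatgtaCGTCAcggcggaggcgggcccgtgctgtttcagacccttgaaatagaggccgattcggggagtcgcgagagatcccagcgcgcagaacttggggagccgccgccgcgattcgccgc
Egr2: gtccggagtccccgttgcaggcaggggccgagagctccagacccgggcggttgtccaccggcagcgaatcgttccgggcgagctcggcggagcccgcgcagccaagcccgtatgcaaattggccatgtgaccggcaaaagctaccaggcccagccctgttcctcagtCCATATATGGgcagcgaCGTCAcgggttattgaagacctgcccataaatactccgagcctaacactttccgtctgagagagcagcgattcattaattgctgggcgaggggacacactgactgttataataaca

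The windows share one arrangement of these motifs. In both, the CArG box CCATATATGG covered bases -83 to -74 from the start, and a CRE core on the opposite strand covered bases -66 to -62, with 7 bases between the motifs. Egr1 had another CArG box, CCATATTAGG, at -105 to -96 and another CRE core at -135 to -131. A CArG box was present in 1.64% of the 33465 windows of this table without undetermined bases, a CRE core in 21.2% and both in 0.272%. The box CCATATATGG itself, looked for in all windows after it had been seen in these, occurred in 11 of them. Only the Egr1 and Egr2 windows held it 7 bases ahead of CGTCA, a CRE core on the opposite strand. The box, gap and orientation were taken from these windows, so their presence in both was fixed in advance. Windows of other genes that rose at 1 h could not be compared, since gene IDs were not matched to names. Other orientations of the pair were not looked for. The full CRE TGACGTCA (present in 1.83% of windows, and containing the CRE core) and the EGR site GCGNGGGCG (in 4.98%) had 0 matches in either window. The ETS motif CCGGAA, labelled ETS core in the figure, was in 15% of windows and matched once in Egr2 and not in Egr1. Shorter or other forms of ETS sites were not searched, so their absence from Egr1 is not shown. A match is a run of letters and not a measured binding site. The gene record of Egr2 begins 760 bases upstream of the start used here, so that another annotated start lies outside its window.

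**Figure D1:**
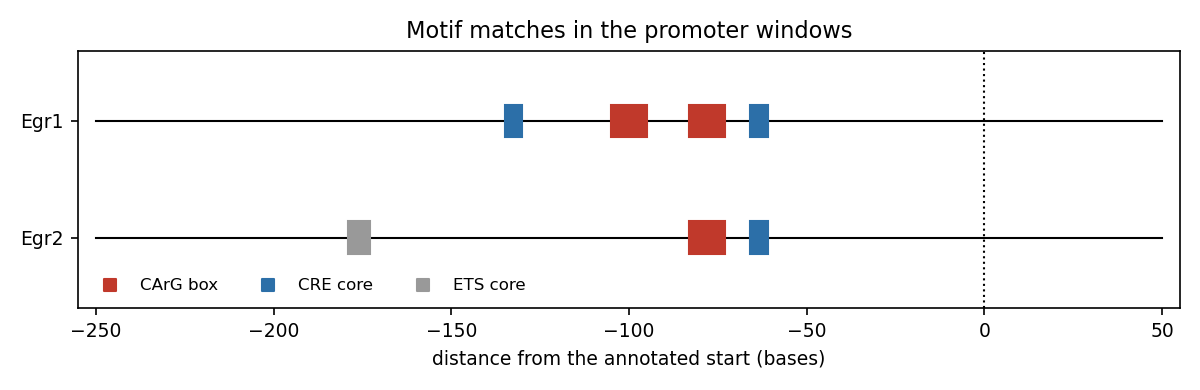
Motif matches in the 2 promoter windows, drawn by distance in bases from the annotated start (dotted line), with CArG boxes in red, CRE cores in blue and the ETS motif CCGGAA (labelled ETS core) in grey. The CArG box at -83 to -74 and the CRE core at -66 to -62 stand at the same distance from the start in Egr1 and Egr2.

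Gene counts per library ran from 7463875 to 9215695 over the 18 libraries. Levels are given as CPM (counts relative to the library total), scaled with TMM factors for differences in library composition and not divided by transcript length, so that the level of Egr1 is not compared with that of Egr2. A count of 3 in a library corresponded to 0.331 to 0.391 CPM, and such limits cover counting error only. The files give gene IDs without names, so defining markers of the regions and of neurons, glia, choroid plexus and blood, and the other genes of the EGR pathway, were not tested here. In punches of tissue, fewer cells that express a gene and less RNA per cell cannot be told apart.

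At rest, both genes were lower in the hippocampus than in the prelimbic cortex. Naive dHC pools had 77.9, 85.8 and 80.9 CPM of Egr1, from 696, 658 and 710 counts. Naive PL pools had 173, 159 and 132.9 CPM, from 1562, 1440 and 1094 counts. Every dHC pool thus lay below every PL pool, as did those of 26.3% of all genes tested between the naive regions, and pool 3 of PL was the lowest of its group. The log2 difference, dHC minus PL, was -0.95 (SE 0.10, edgeR adjusted p = 5.94e-09), so that PL had 1.93 times the dHC level.

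Egr2 was scarce in the resting hippocampus. Naive dHC pools had 5, 6 and 6 counts, or 0.560, 0.783 and 0.684 CPM, and naive PL pools had 33, 38 and 22 counts, or 3.64, 4.21 and 2.67 CPM. The groups did not overlap, and the 17 counts of all naive dHC pools had an exact Poisson 95% interval of 9.90 to 27.2. The log2 difference, dHC minus PL, was -2.39 (SE 0.37, edgeR adjusted p = 4.73e-06), which puts dHC at 0.191 of the PL level (95% interval 0.113 to 0.323). Both members were therefore called lower in dHC, as were 23.4% of all 14784 genes tested between the naive regions.

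**Figure D2:**
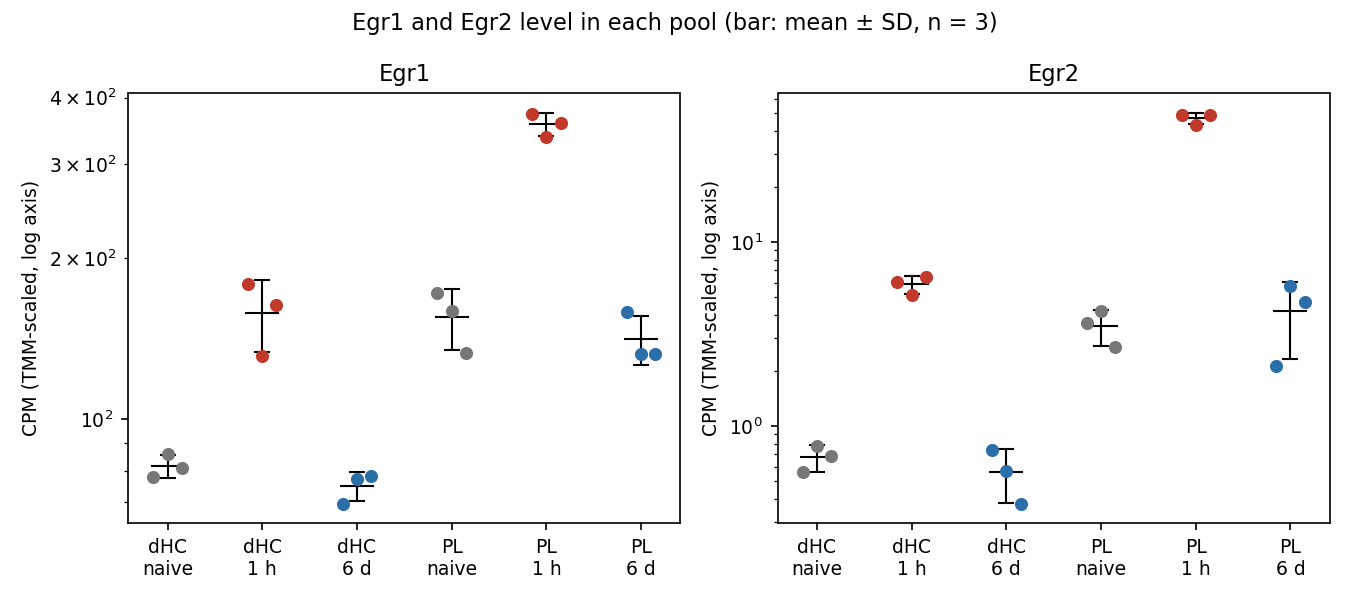
Level of Egr1 (left) and Egr2 (right) in each pool, in CPM on a log axis, by region and time, with naive in grey, 1 h in red and 6 d in blue; points are pools and black bars the mean ± SD (n = 3). The 1 h pools of a region lie above its naive and 6 d pools for both genes, and the Egr1 pools of dHC at 1 h overlap those of naive PL.

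In dHC, 1 h after training, both genes were higher than in naive rats. For Egr1, the pools had 179, 131 and 164 CPM at 1 h (1589, 1179 and 1476 counts), against 77.9, 85.8 and 80.9 CPM in naive rats. The lowest 1 h pool lay 45.4 CPM above the highest naive pool. Means were 158 ± 24.3 CPM at 1 h and 81.6 ± 4.00 CPM in naive dHC (SD, n = 3 each), and the log2 fold change was 0.96 (SE 0.09, with an edgeR adjusted p = 1.37e-05) or 1.94-fold (95% interval 1.71 to 2.21). Among 14305 genes tested in dHC, Egr1 ranked number 14 by log2 fold change.

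Egr2 rose from near the detection limit in this region. The 1 h pools of dHC had 54, 46 and 58 counts, or 6.07, 5.12 and 6.43 CPM, against the 5, 6 and 6 counts of naive pools. Even the lowest 1 h pool held more counts than the naive pools together, whose sum was 17. The means of 5.88 ± 0.679 CPM at 1 h and 0.675 ± 0.112 CPM in naive dHC (SD, n = 3 each) gave a log2 fold change of 3.11 (SE 0.29, with an edgeR adjusted p = 1.37e-05), or 8.61-fold with a 95% interval of 5.63 to 13.2. No other gene tested in dHC had a larger one, a rank measured from 5 or 6 naive counts per pool. Egr2 passed the filter on low counts in dHC through its 1 h pools, and failed it with naive and 6 d pools alone. Both members were called higher, as were 0.217% of genes in this comparison, and libraries that did not overlap in the higher direction were found for 8.91% of genes. Library totals moved with this comparison, being 8914752 to 9136114 at 1 h and 7687831 to 8874826 in naive dHC, and their part in the result was not tested.

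In PL, the rise at 1 h was larger in level for both genes. Egr1 had 373, 338 and 359 CPM at 1 h (3303, 2889 and 3151 counts), against 173, 159 and 132.9 CPM in naive PL. The gap between the groups was 166 CPM, wider than the range within either. Means were 357 ± 17.6 CPM at 1 h and 155 ± 20.2 CPM in naive PL (SD, n = 3 each), and the log2 fold change was 1.20 (SE 0.08, with an edgeR adjusted p = 1.73e-09) or 2.30-fold (95% interval 2.04 to 2.59), and Egr1 ranked number 25 of 14318 genes by log2 fold change.

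Egr2 in PL had 48.8, 43.3 and 49.0 CPM at 1 h (432, 370 and 430 counts), against 3.64, 4.21 and 2.67 CPM in naive rats. The lowest 1 h pool lay 39.1 CPM above the highest naive pool. The means of 47.0 ± 3.22 CPM at 1 h and 3.51 ± 0.777 CPM in naive PL (SD, n = 3 each) gave the largest log2 fold change of all genes tested in PL, 3.73 (SE 0.18, edgeR adjusted p = 4.11e-12), or 13.3-fold with a 95% interval of 10.3 to 17.2. The members were again both called, where 0.782% of genes were called higher and 10.4% had libraries that did not overlap in that direction.

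**Figure D3:**
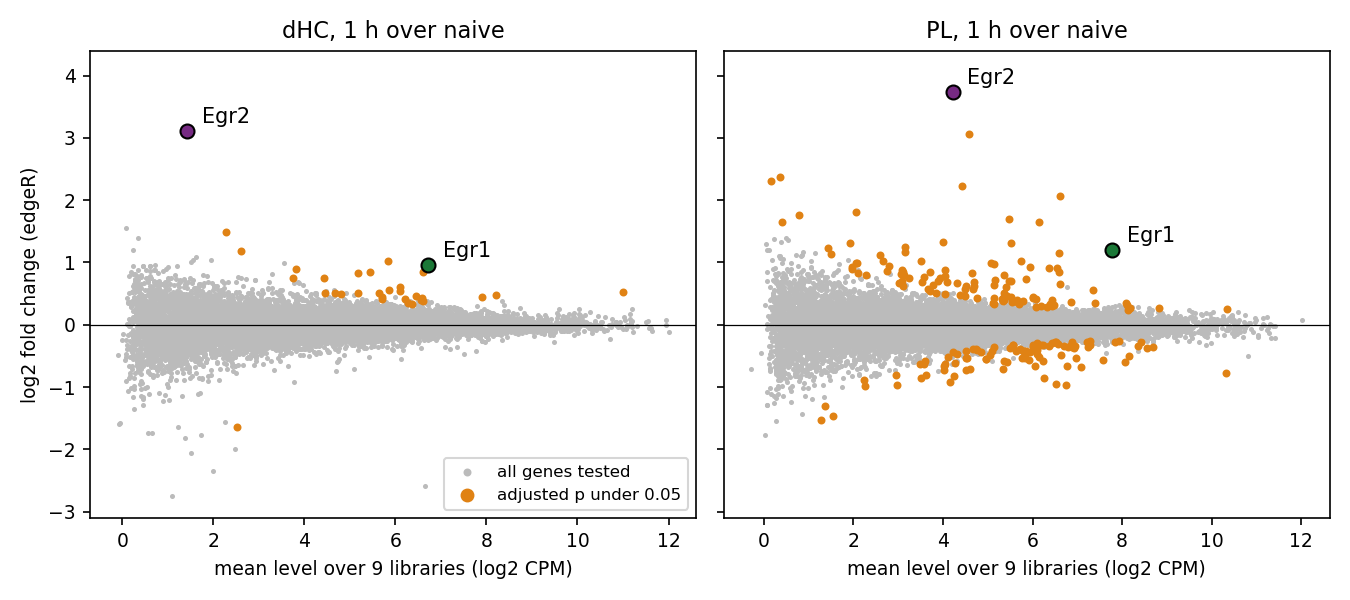
Log2 fold change at 1 h over naive (edgeR) against mean level over the 9 libraries of a region (log2 CPM) for every gene tested, in dHC (left) and PL (right); genes with an adjusted p under 0.05 are in orange. Egr2 is the highest point in both panels, at 3.11 in dHC and 3.73 in PL, and Egr1 lies at 0.96 in dHC and 1.20 in PL among the more abundant genes.

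Within a region, the same pool was lowest at 1 h for both genes. Pool 2 was the lowest of its group for Egr1 and for Egr2 in dHC, and pool 2 was likewise the lowest for both in PL. This is a description of 3 pools in each group.

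Measured as an amount and not as a ratio, the regions stood further apart. With the same fold in both regions, the region with the higher resting level gains more. Naive PL had 1.93 times the dHC level of Egr1 and 5.24 times that of Egr2. The gains below therefore do not by themselves show a regional difference in the response. Egr1 gained 76.3 CPM in dHC (SE 14.2) and 202 CPM in PL (SE 15.5), so that the gain in PL was 2.64 times that in dHC. The gain of Egr2 was 5.20 CPM in dHC (SE 0.397) and 43.5 CPM in PL (SE 1.91), a ratio of 8.37. In mean counts per library, Egr2 gained 47 in dHC and 380 in PL, and Egr1 gained 727 in dHC and 1749 in PL. Differences in gain, dHC minus PL, were -125 CPM for Egr1 (SE 21.0) and -38.3 CPM for Egr2 (SE 1.95), with the pools of the regions taken as separate.

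As a ratio, the response did not pass the test of a regional difference. The log2 fold change in dHC minus that in PL was -0.24 for Egr1 (SE 0.13, 95% interval -0.51 to 0.038, edgeR adjusted p = 0.711). For Egr2 it was -0.62 (SE 0.50, 95% interval -1.64 to 0.40, edgeR adjusted p = 0.810). Both estimates lie on the side of a smaller fold in dHC, and the interval of Egr2 reaches from a fold in dHC that is 0.322 of that in PL to one that is 1.32 times as large. Neither member was called, where 0.0947% of the 14784 genes were called in this test in either direction by edgeR, 14 with limma voom and 22 with DESeq2. At an unadjusted p under 0.05 there were 0 of the 2 members and 1047 of all genes, or 7.08%.

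Egr2 was higher relative to Egr1 at 1 h in every pool of both regions. The ratio of Egr2 to Egr1 counts needs no scaling by depth, and transcript length, being the same in every library, cancels from its change. Egr2 made up 3.29, 3.76 and 3.78% of the Egr1 and Egr2 counts together in dHC at 1 h, against 0.713, 0.904 and 0.838% in naive dHC. In PL it made up 11.6, 11.4 and 12.0% at 1 h, against 2.07, 2.57 and 1.97% in naive rats. No 1 h pool overlapped a naive pool of its region in this share. This restates the larger fold change of Egr2 given above, and other gene pairs were not looked at for comparison. The log2 ratio, with 0.5 added to each count, was higher at 1 h than in naive pools by 2.08 in dHC (SE 0.117) and by 2.53 in PL (SE 0.120). Each difference had an exact permutation p = 0.1 (two-sided, adjusted p = 0.2 over 4 tests), the smallest that 3 pools against 3 allow. The SEs of these differences come only from the spread between pools. In naive dHC, Egr2 counts of 5, 6 and 6 varied less than counting error alone would give (chi-square per degree of freedom 0.146). The SE in dHC therefore understates the uncertainty.

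**Figure D4:**
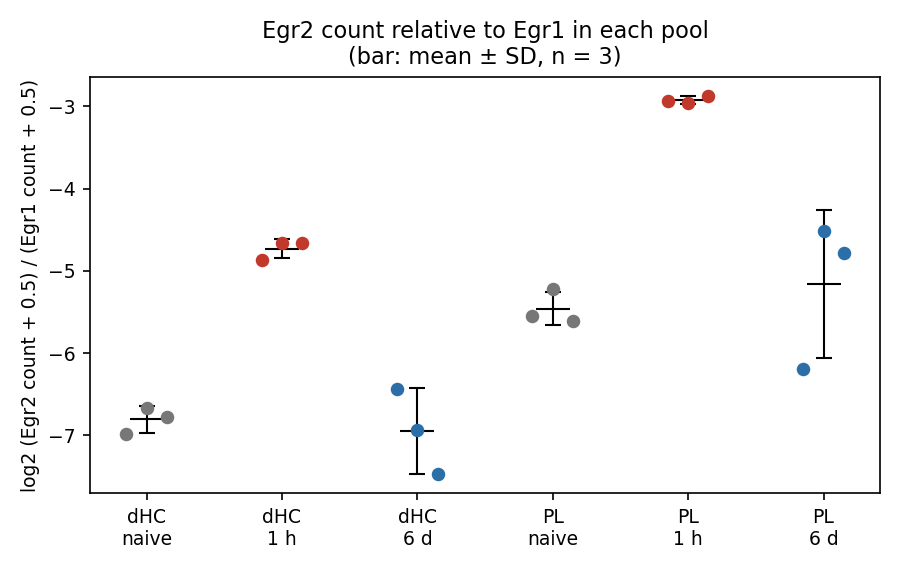
Log2 ratio of Egr2 to Egr1 counts (0.5 added to each) in each pool by region and time, with the mean ± SD as black bars (n = 3). The 1 h pools lie above the naive pools of their region, and the 6 d pools spread more widely, with a SD of 0.52 in dHC and 0.90 in PL against 0.16 and 0.20 in naive pools. In dHC these SDs rest on Egr2 counts of 3 to 6 at 6 d and 5 to 6 in naive pools, within counting error. In PL the spread at 6 d rests on pool 1, with 19 Egr2 counts against 44 and 42.

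At 6 d both genes were near their naive level. Egr1 in dHC had 69.4, 77.1 and 78.3 CPM at 6 d, overlapping the 77.9 to 85.8 CPM of naive pools. In PL it had 158, 132 and 132 CPM at 6 d, overlapping the 132.9 to 173 CPM of naive pools. The log2 fold changes against naive were -0.12 in dHC (SE 0.09, 95% interval -0.31 to 0.079, edgeR adjusted p = 0.930) and -0.13 in PL (SE 0.08, 95% interval -0.31 to 0.043, edgeR adjusted p = 0.999). A rise of Egr1 of more than 1.06-fold in dHC or 1.03-fold in PL at 6 d lies outside these intervals.

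Egr2 was less well bounded at 6 d. It had 6, 5 and 3 counts in dHC, or 0.741, 0.572 and 0.378 CPM, close to the limit of 3 counts, with 14 counts in all (exact Poisson 95% interval 7.65 to 23.5). In PL it had 19, 44 and 42 counts, or 2.11, 5.73 and 4.75 CPM, so that pool 1 lay below every naive PL pool and the others above all of them. The same PL pool 1 was the highest of its group for Egr1. Log2 fold changes against naive were -0.24 in dHC (SE 0.47, 95% interval -1.21 to 0.74, edgeR adjusted p = 0.980) and 0.23 in PL (SE 0.27, 95% interval -0.33 to 0.78, edgeR adjusted p = 0.999). Without pool 1 at 6 d the PL value was 0.56 (edgeR adjusted p = 0.342), and without pool 2 at 6 d it was -0.046.

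Against naive at 6 d, 0 of the 2 members were called by edgeR in either region, and 0 had an unadjusted p under 0.05. Over all genes 0% were called in each region by edgeR, with 804 of 14305 in dHC and 497 of 14318 in PL at an unadjusted p under 0.05, while with DESeq2 the calls were 1 in dHC and 0 in PL. The dHC change minus the PL change at 6 d was 0.023 for Egr1 (SE 0.14, edgeR adjusted p = 1) and -0.46 for Egr2 (SE 0.62, edgeR adjusted p = 1), and 0% of the 14784 genes were called in this test by edgeR, with 558 at an unadjusted p under 0.05 and 0 called with DESeq2. Relative to Egr1, the log2 ratio of Egr2 at 6 d minus naive was -0.14 in dHC (SE 0.314, exact permutation p = 0.8) and 0.29 in PL (SE 0.533, exact permutation p = 0.6).

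The return showed when 6 d was set against 1 h. Egr1 differed by -1.07 in dHC (SE 0.09, edgeR adjusted p = 3.82e-06) and by -1.33 in PL (SE 0.08, edgeR adjusted p = 2.56e-10). For Egr2 the differences were -3.34 in dHC (SE 0.30, edgeR adjusted p = 8.32e-06) and -3.50 in PL (SE 0.18, edgeR adjusted p = 6.27e-12), the most negative of all genes tested in each region. In dHC, Egr2 was among the genes tested only through its 1 h pools. All 6 d pools lay below all 1 h pools of their region for both genes, as was found for 9.49% of genes in dHC and 10.6% in PL. Library totals in dHC moved with this comparison too, being 7921311 to 8806419 at 6 d and 8914752 to 9136114 at 1 h. Their part in the result was not tested. Both members were called lower, as were 0.699% of genes in dHC and 1.05% in PL. This comparison shares its 1 h libraries with the comparison against naive, and their values are set side by side here.

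**Figure D5:**
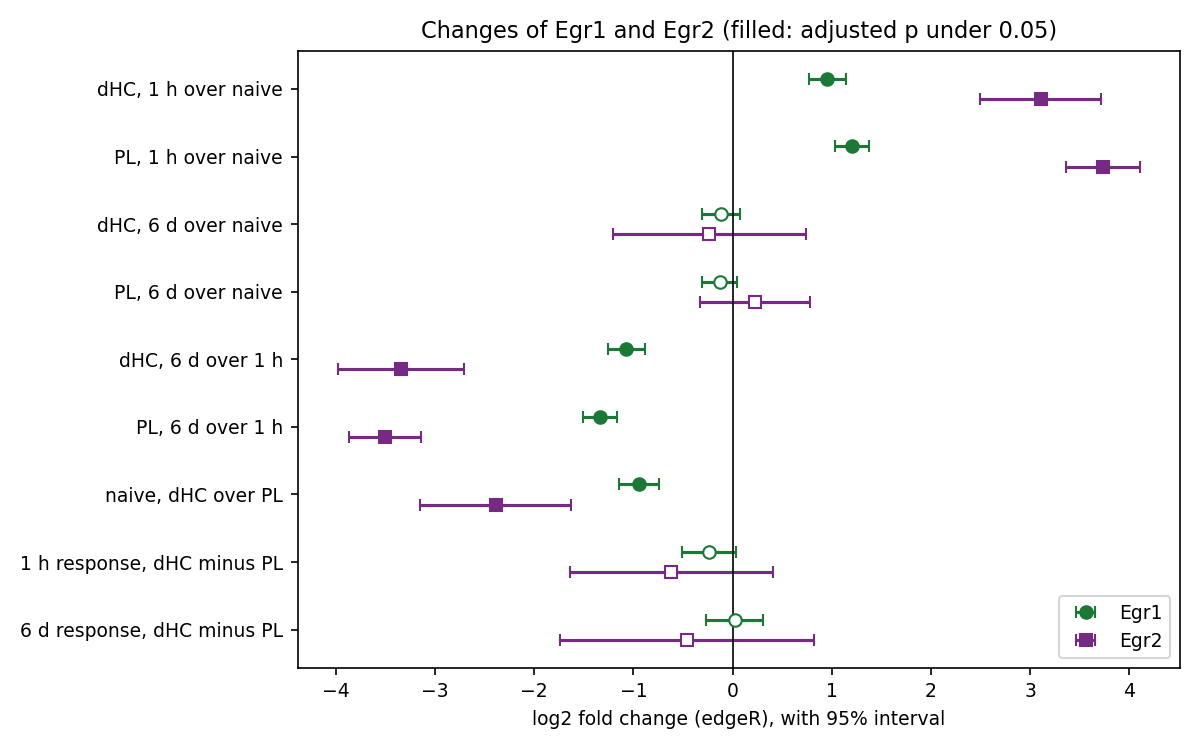
Log2 fold changes of Egr1 (green circles) and Egr2 (purple squares) in the 9 comparisons, with 95% intervals from edgeR; filled symbols have an adjusted p under 0.05. Values at 1 h over naive are positive, those of 6 d over naive lie around 0, and the intervals of Egr2 are wider than those of Egr1.

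Over the 6 groups, the order of levels was led by PL at 1 h for both genes. Egr1 ran, low to high, through dHC at 6 d (74.9 ± 4.80 CPM), naive dHC (81.6 ± 4.00), PL at 6 d (141.1 ± 14.9), naive PL (155 ± 20.2), dHC at 1 h (158 ± 24.3) and PL at 1 h (357 ± 17.6; SD, n = 3 each). The trained hippocampus at 1 h and the untrained prelimbic cortex lay 2.91 CPM apart, less than the SD of either group (exact permutation p = 0.8, two-sided). They were compared because these same means made them neighbours, and 3 pools against 3 cannot give a p under 0.1. The test therefore does not show that their levels are equal. Neighbours in this order overlapped except at the steps between naive dHC and PL at 6 d and between dHC at 1 h and PL at 1 h. Libraries that did not overlap in the same direction, with dHC below PL, were found for 25.9% of all genes between naive dHC and PL at 6 d and for 28.3% between the regions at 1 h.

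For Egr2 the order was dHC at 6 d (0.564 ± 0.182 CPM), naive dHC (0.675 ± 0.112), naive PL (3.51 ± 0.777), PL at 6 d (4.20 ± 1.87), dHC at 1 h (5.88 ± 0.679) and PL at 1 h (47.0 ± 3.22; SD, n = 3 each). The steps without overlap were those between naive dHC and naive PL and between dHC at 1 h and PL at 1 h, as for 26.3% and 28.3% of all genes. Exact permutation tests of the neighbours gave p = 0.1, the smallest possible, at each step without overlap (two-sided, adjusted p = 0.25 over 10 tests), and p from 0.2 to 0.8 at the others. The pairs were set by the order of the same means, so these tests do not decide which steps are real.

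The gene whose pattern over the 18 libraries was most like that of Egr1 was ENSRNOG00000007607, with a Pearson r of 0.983 in log2(CPM + 0.5) among 14784 genes. It was also the closest to Egr2 over the 18 libraries, with r = 0.973, but was number 4 for Egr2 within the dHC libraries and number 11 within the PL libraries, while for Egr1 it was number 1 in each region. It had 71.7 to 93.7 CPM in dHC at 1 h, against 35.9 to 45.7 CPM in naive dHC, and 150 to 156 CPM in PL at 1 h, against 66.0 to 73.7 CPM in naive PL. Egr1 and Egr2 were correlated with each other at r = 0.967, which made Egr2 number 3 for Egr1 and Egr1 number 2 for Egr2. Within the 9 libraries of a region the correlation of Egr1 with Egr2 was 0.967 in dHC and 0.943 in PL. There Egr2 was number 2 for Egr1 in dHC and number 31 in PL, and Egr1 was number 5 for Egr2 in dHC and number 30 in PL. These libraries fall into groups by region and time, which the points share, so that the correlations describe the same rise at 1 h and difference between regions as given above.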

How the data were processed

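RNA of 5 rats per pool was made into libraries with a stranded mRNA kit (200 ng input, 12 PCR cycles) and read in pairs of 150 nt, per the labels' protocols. The deposited values are whole-number read counts per Ensembl gene, made by the authors and not normalized. The submitters' processing notes name Rnor_6.0, Picard 1.126, bedtools 2.17.0 and DESeq2 without roles, and no source used here states the aligner, counter or strand setting, so reads of an overlapping or antisense gene could be included. The 5 rows of reads given to no gene were left out. Of all reads of a library, 42.0% to 51.8% were not aligned and 5.56% to 7.18% aligned to more than one place. A further 10.1% to 13.6% fell on no counted feature and 0.599% to 0.706% were ambiguous between features.

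Tests used edgeR 4.0.16 in R 4.3.3 (quasi-likelihood F test, two-sided, TMM factors, filterByExpr by group, Benjamini-Hochberg over all genes tested), with the 9 libraries of a region for changes within it and all 18 between regions. Both members passed this filter in both regions, Egr2 in dHC only through its 1 h pools. Called means an adjusted p under 0.05, and standard errors were derived from the F statistic. The tests were tried on simulated counts. DESeq2 1.42.0, limma 3.58.1 (voom), other normalization, filtering and library choices were alternatives.

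The members, lists and tests were chosen with earlier results of these data known. The rule for named genes took Egr1, Egr2 and the most similar gene for each. The 5 gene lists fixed by symbol and the marker list were not tested, since 0 of 32662 IDs matched the reference table. No replicate repeated another, since each of 18 pairs exceeded counting noise (chi-square per degree of freedom 1.67 to 4.98). The labels call the pools independent and name no batch or day. They do not say whether dHC and PL pools of a group and number hold the same rats, and comparisons between regions treat them as separate. Such pools correlated at -0.142 to 0.0444 in their deviations from the group means (9 pairs, 0 over 0.1).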

Additional observations from a re-analysis of the deposited data

How the results depend on the processing

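The 10 member results that passed (both genes at 1 h over naive, at 6 d over 1 h and between naive regions) kept their direction and stayed past the threshold in all 174 alternatives that gave an adjusted p. At 1 h over naive, leaving out each library gave log2 fold changes of 0.85 to 1.07 (dHC) and 1.10 to 1.28 (PL) for Egr1, and 2.99 to 3.21 (dHC) and 3.58 to 3.88 (PL) for Egr2. DESeq2 gave no adjusted p for Egr2 in dHC at 1 h (log2 3.13, unadjusted p = 1.51e-11) or at 6 d over 1 h (log2 -3.38, unadjusted p = 6.65e-12), and Egr2 in dHC at 6 d did not pass the filter with only those groups. With the replicate number as a block, Egr2 at 1 h was 3.11 in dHC (edgeR adjusted p = 2.52e-06) and 3.73 in PL (edgeR adjusted p = 7.28e-13), and no member call changed, though the genes called in dHC at 1 h went to 110 higher and 40 lower. Same-numbered pools of a region correlated at -0.065 to 0.225 in their deviations, 3 of 18 over 0.1, so the numbers were not taken as pairs.

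Values around 0 changed sign when single libraries were left out, with ranges of -0.046 to 0.56 for Egr2 in PL at 6 d, -0.069 to 0.12 for the regional difference of Egr1 at 6 d, -0.40 to 0.12 for the ratio of Egr2 to Egr1 in dHC at 6 d and -0.031 to 0.81 for that ratio in PL at 6 d. The cause was not tested. The background of called genes was less stable, with 32 in dHC at 1 h (14 to 66 without single libraries, 275 without a filter), 206 in PL at 1 h (87 to 574, and 564), 158 in dHC at 6 d against 1 h (18 to 343, and 623), 317 in PL at 6 d against 1 h (149 to 358, and 675) and 14 for the regional difference at 1 h (6 to 27, and 117). Where 0 genes were called at 6 d, the fit without a filter called 31 in dHC, 8 in PL and 12 for the regional difference. Depth limits Egr2 in dHC, with 3 to 6 counts per library outside the 1 h group.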
